A study of Rattus norvegicus with 9 samples.

Results

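The genes described here are 10 transcripts of defensins, of other granulocyte proteins and of the red-cell lineage. They were measured in the livers of rats given a carcinogen with or without PZH, a traditional Chinese formula. They were picked by symbol from the 32883 genes of the deposited table. Defa5, RatNP-3b and Ank1 were picked because they were among the strongest falls with PZH, and the other 7 (Np4, S100a8, S100a9, Mpo, Elane, Ngp and Alas2) are further granulocyte and erythroid genes. The values in DEN model and PZH rats therefore chose the first 3, and every value of the 10 in PZH rats against DEN model rats is given as a description with no test. For Defa5, RatNP-3b and Ank1 no test is given in any comparison. The choice had no numerical threshold, so there are no genes just inside or outside it.

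The study asked whether PZH acts on liver that is turning malignant, and sequenced liver RNA of 9 male Sprague-Dawley rats, 3 in each group. Normal control rats (rats 1, 12 and 3) received no diethylnitrosamine (DEN), a chemical that causes liver cancer. DEN model rats (13, 17 and 24) and PZH rats (27, 28 and 42) both received 0.01% DEN into the abdomen once a week in a 16-week protocol, and the PZH rats also received PZH. The labels do not give the dose of PZH or the week at which a sequenced rat was killed. The treatment tag of the DEN model rats reads PZH as well. The groups were therefore taken from the letter in each rat's name (N, M or G) and the study's methods. The tissue is whole liver, from rats of a single sex and strain.

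Total counts were between 14922973 and 16641954 in 8 rats and 27161496 in PZH rat 27. Scaling factors (TMM) were 0.731 to 0.799 in normal control rats, 1.21 to 1.58 in DEN model rats and 0.863 to 0.941 in PZH rats. Levels below are counts scaled to equal library size (CPM) after this scaling, and a count of 3 in 1 library, used as the floor, was worth 0.125 to 0.252 CPM. This floor and all counting intervals cover counting error only. The liver label was checked against hepatocyte genes such as Alb and Ttr, none of which was at 0 in any group. The summed level of 7 hepatocyte genes was 156359 to 166555 CPM in normal control rats, 32044 to 73393 CPM in DEN model rats and 122868 to 171017 CPM in PZH rats.

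Neutrophils are made in the bone marrow, and their granules are filled in order as the cell matures. Primary (azurophil) granules are filled first, at the promyelocyte stage, with myeloperoxidase (Mpo), neutrophil elastase (Elane) and, in the rat, alpha-defensins, which are short peptides that break microbial membranes. Secondary granule proteins such as Ngp follow, while S100a8 and S100a9, which pair to form calprotectin, fill the cytosol of mature neutrophils and monocytes. Transcripts of primary granule proteins are normally lost before a neutrophil leaves the marrow. The red-cell lineage uses Alas2, the erythroid form of the first enzyme of haem synthesis, and Ank1, the ankyrin that ties the membrane skeleton to the anion exchanger. Rat liver makes blood cells before and around birth, and the adult organ holds mainly the cells that arrive with blood.

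In the coordinates of the authors' file, whose genome build is not given in the sources used here, the alpha-defensins lie together on chromosome 16. Defa5 (ENSRNOG00000030093) runs from 75338052 to 75340360, Np4 (ENSRNOG00000028707) from 75414786 to 75481115 and RatNP-3b (ENSRNOG00000038135) from 75497832 to 75530517. The span of RatNP-3b holds Defa10 and Defa11, and that of Np4 holds Defa8 and Defa9. Alpha-defensin genes are near-copies of each other, so reads could have been split among them in the authors' counting and the division between these genes is uncertain. Ank1 (ENSRNOG00000018241) is on the same chromosome, from 73681422 to 73827488, and overlaps LOC100910418. S100a8 (ENSRNOG00000011557, 190073815 to 190074354) and S100a9 (ENSRNOG00000011483, 190097554 to 190100276) are neighbours on chromosome 2. Mpo (ENSRNOG00000008310) is on chromosome 10 from 75087892 to 75098260, and Elane (ENSRNOG00000033685) is on chromosome 7 from 12638322 to 12640232, within the span of Arhgap45. Ngp (ENSRNOG00000024330) is on chromosome 8 from 118662335 to 118665699, and Alas2 (ENSRNOG00000000167) is on chromosome X from 23167696 to 23187341.

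Promoters of 6 of the 10 genes were in RefSeq's table for the rat build GRCr8 (RatNP-3b, Np4, S100a9, Mpo, Ngp and Alas2). Defa5, S100a8, Elane and Ank1 were not in it. The 250 bases before the start of 4 of them are shown because RatNP-3b and Np4 were at or near 0 outside the DEN model group and had closely related sequences, S100a9 is the granulocyte gene with the highest level, and Alas2 is the erythroid gene with the highest level. Each is written 5' to 3' on its own strand, at chr16:77248978-77249227 (minus strand) for RatNP-3b, chr16:77199643-77199892 (minus) for Np4, chr2:178490623-178490872 (minus) for S100a9 and chrX:22895200-22895449 (plus) for Alas2. Capitals mark matches, on either strand, to AGATAA (bound by GATA factors), TGTGGT (Runx factors) and TTGCNNAA (C/EBP factors), none of which overlapped another here.
RatNP-3b: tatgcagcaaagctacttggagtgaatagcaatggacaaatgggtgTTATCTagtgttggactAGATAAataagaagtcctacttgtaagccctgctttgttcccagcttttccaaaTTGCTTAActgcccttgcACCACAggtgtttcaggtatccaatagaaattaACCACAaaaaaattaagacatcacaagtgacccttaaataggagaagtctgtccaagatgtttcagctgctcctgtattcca
Np4: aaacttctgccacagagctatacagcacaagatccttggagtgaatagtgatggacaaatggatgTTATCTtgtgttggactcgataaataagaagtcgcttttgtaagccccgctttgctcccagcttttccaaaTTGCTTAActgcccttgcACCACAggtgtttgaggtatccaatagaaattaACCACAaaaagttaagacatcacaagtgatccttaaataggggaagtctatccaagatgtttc
S100a9: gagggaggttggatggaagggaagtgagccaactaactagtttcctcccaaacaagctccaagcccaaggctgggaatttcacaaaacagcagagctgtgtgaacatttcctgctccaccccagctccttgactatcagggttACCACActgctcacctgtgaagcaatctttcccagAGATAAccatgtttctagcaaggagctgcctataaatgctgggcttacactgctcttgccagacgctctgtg
Alas2: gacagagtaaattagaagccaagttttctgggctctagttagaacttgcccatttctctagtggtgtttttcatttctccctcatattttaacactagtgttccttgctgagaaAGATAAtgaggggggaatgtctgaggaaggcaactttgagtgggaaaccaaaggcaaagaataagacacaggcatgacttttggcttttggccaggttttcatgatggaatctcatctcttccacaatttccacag

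RatNP-3b and Np4 aligned over 234 columns with 214 identical bases (91.5%). Both held TTGCTTAA, at -133 to -126 in RatNP-3b and -114 to -107 in Np4, counting the base before the start as -1. Both also held the Runx sequence on the opposite strand at a pair of places, and RatNP-3b had AGATAA once on each strand where Np4 had it once. S100a9 had AGATAA at -72 to -67 and the Runx sequence once, and Alas2 had a single AGATAA, at -136 to -131. The Mpo window held none of the 3 motifs, which says only that they are not in those 250 bases. Of 33469 promoter windows of this length in the table, 10.3% held AGATAA, 14.5% held TGTGGT and 9.22% held TTGCNNAA. These matches are a description of sequence and were not measured as binding.

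The alpha-defensins Defa5 and RatNP-3b were seen almost only in DEN model rats. Defa5 had 91, 28 and 49 counts in DEN model rats 13, 17 and 24 (3.87, 1.39 and 2.04 CPM; mean 2.43 ± 1.29, SD, n = 3) and 0 counts in all 3 normal control and all 3 PZH rats. Against the floor, its level in DEN model rats was at least 10.3-fold higher than in normal control rats, and in PZH rats at least 13-fold lower than in DEN model rats. RatNP-3b had 60, 37 and 38 counts in the DEN model rats (2.55, 1.83 and 1.58 CPM; mean 1.99 ± 0.502, SD, n = 3), 1 count in normal control rat 1 and 0 elsewhere. Its ratio of counts between DEN model and normal control rats was 76.3, with an exact 95% counting interval of 13.5 to 3034 that rests on that 1 count, covers counting alone and is no test, and without normal control rat 12 the ratio was 49.9. It was at least 10.7-fold lower in PZH rats than in DEN model rats. For both genes the DEN model rats overlapped neither the normal control nor the PZH rats.

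Np4, the remaining alpha-defensin of the 10, had 66, 22 and 13 counts in the DEN model rats (2.8, 1.09 and 0.541 CPM) and 0 counts in the 6 other rats. Its level was at least 6.26-fold higher in DEN model than in normal control rats, or at least 3.46-fold without DEN model rat 13. Having no count in normal control rats, it passed the filter on low counts only through the DEN model rats, and no p is given. In PZH rats Np4 was at least 7.92-fold lower than in DEN model rats, or at least 4.38-fold without rat 13. In the DEN model rats the 3 genes did not share one order below rat 13: Defa5 was higher in rat 24 than in rat 17, and Np4 was higher in rat 17 than in rat 24.

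The rest of the alpha-defensin family added few reads. Of the 10 alpha-defensin identifiers in the file, 4 had more than 3 counts in at least 1 DEN model rat, none did in a normal control rat and 1 did in a PZH rat. Over all 10 the counts summed to 1 in normal control, 423 in DEN model and 8 in PZH rats. Defa5, RatNP-3b and Np4 held 168, 135 and 101 of those in DEN model rats and 0 of those in PZH rats. Among the other 7, Defal1 had 16 counts in DEN model and 7 in PZH rats. Its highest level was 0.427 CPM in a PZH rat, above the 0.255 CPM of the highest DEN model rat. Defa11 had 3 counts in DEN model rats and Defa24 had 1 in PZH rats. The family of beta-defensins, which epithelial cells make, was read as well. Of its 38 identifiers only Defb1 had more than 3 counts in a DEN model rat. Defb1, named after its values were seen, was at 8.29, 9.16 and 7.33 CPM in DEN model rats and at 0 in normal control rats. In PZH rats it was at 1.24, 5.57 and 3.56 CPM, a log2 fold change of -1.26 (SE 0.47, adjusted p = 0.097) against DEN model rats.

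**Figure D1:**
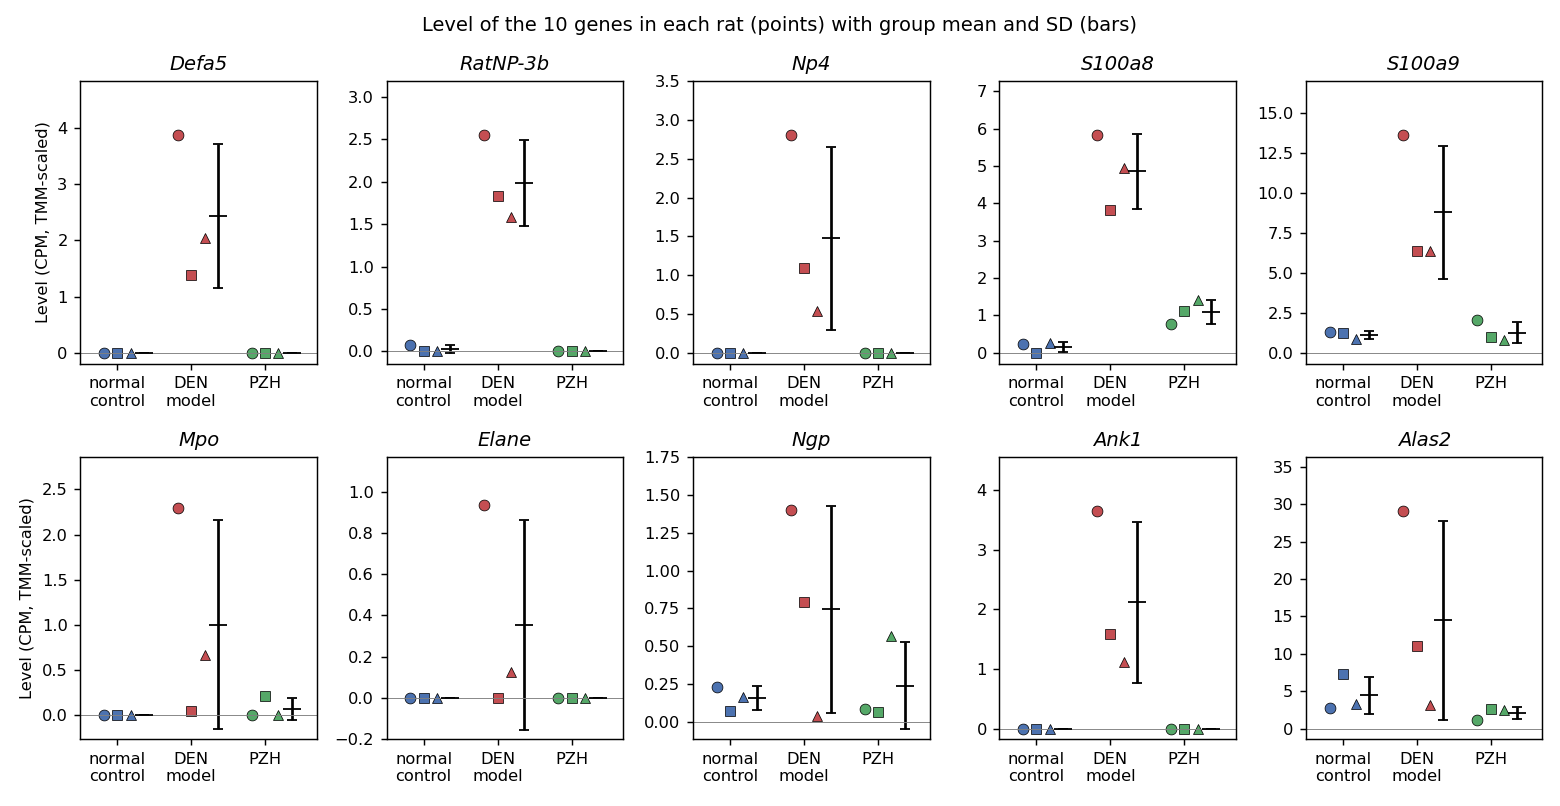
Level of each of the 10 genes in each rat, in CPM on a linear axis that differs between panels. Points are rats (circle, square and triangle in the order 1, 12, 3; 13, 17, 24; 27, 28, 42), and the black bar beside them is the group mean with its SD. Defa5, Np4 and Ank1 are at 0 in all 6 rats outside the DEN model group, and DEN model rat 13 is the highest rat in every panel.

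The primary granule enzymes came mainly from DEN model rat 13. Mpo, which makes hypochlorous acid from hydrogen peroxide, had 54, 1 and 16 counts in DEN model rats 13, 17 and 24 (2.29, 0.0495 and 0.666 CPM), 0 in normal control rats and 3 counts in a single PZH rat, rat 28. It was at least 4.24-fold higher in DEN model than in normal control rats, and at least 1.52-fold without rat 13. Its ratio of counts was 17.8-fold lower in PZH than in DEN model rats (exact 95% counting interval 5.84 to 88.2), 6.54-fold lower without DEN model rat 13 and 9.78-fold lower without PZH rat 27. Mpo did not pass the filter on low counts. Tested without that filter, DEN model against normal control rats gave an adjusted p of 0.035. Only 2 of the 5 alternatives that could test Mpo passed, this one included. All but this one admitted it only through the DEN model rats, and their p is not given.

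Elane, the elastase, had 22, 0 and 3 counts in DEN model rats 13, 17 and 24, and 0 in every other rat. Its bounds were at least 1.49-fold higher in DEN model than in normal control rats and at least 1.89-fold lower in PZH than in DEN model rats. The single rat 13 carried this: without it no rat had more than 3 counts, and without rat 17, which had none, the bounds were 2.25-fold and 2.87-fold. Without the filter its adjusted p against normal control rats was 0.11. Prtn3 and Ctsg, the companion serine proteases of these granules, were also all but limited to rat 13, at 0.51 and 0.935 CPM there, 0.0416 CPM each in rat 24 and 0 in rat 17. Ctsg was at 0 in normal control and PZH rats, and Prtn3 reached 0.214 CPM in PZH rat 42. None of these amounts was tested, since both genes failed the filter. Of the 5 genes of the primary granule list with at least 20 counts, 2 were highest in rat 13 (Ctsg and Ctsc) and 3 in rat 24 (Cst7, Srgn and Cd63).

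Ngp, a protein of secondary granules, separated no pair of groups. Counts were 3, 1 and 2 in normal control rats, 33, 16 and 1 in DEN model rats and 2, 1 and 8 in PZH rats, and the groups overlapped in all 3 comparisons. The ratio of counts was 4.71-fold higher in DEN model than in normal control rats (exact 95% counting interval 2.02 to 13.4) and 3.41-fold lower in PZH than in DEN model rats (1.75 to 7.27). Leaving out rat 13 brought these to 2.46-fold and 1.78-fold, leaving out DEN model rat 24 to 7.21-fold and 5.17-fold, and leaving out PZH rat 42 the second to 9-fold. Without the filter its adjusted p in DEN model against normal control rats was 0.17. The other alternatives that tested Ngp admitted it only through the DEN model rats, and their p is not given.

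S100a8 and S100a9 had the highest levels of the 8 defensin and granulocyte genes. S100a8 was at 0.234, 0 and 0.252 CPM in normal control rats, 5.82, 3.81 and 4.95 CPM in DEN model rats, and 0.768, 1.11 and 1.42 CPM in PZH rats. The 3 groups did not overlap. DEN model rats exceeded normal control rats by a log2 fold change of 4.89, and by 4.30 without normal control rat 12. With at most 3 counts in a normal control rat, S100a8 passed the filter on low counts only through the DEN model rats, and no p is given. The log2 fold change in PZH against DEN model rats was -2.13.

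S100a8 in PZH rats lay above every normal control rat, with a log2 fold change of 2.71. With at most 3 counts in a normal control rat, it passed the filter on low counts here only through the PZH rats, and no p is given. Without normal control rat 12 the log2 fold change was 2.12. S100a9, the partner of S100a8, was at 1.33, 1.22 and 0.839 CPM in normal control rats and 13.6, 6.39 and 6.37 CPM in DEN model rats. Its log2 fold change was 2.97 (SE 0.41, edgeR quasi-likelihood, adjusted p = 0.00091). In PZH rats S100a9 was at 2.05, 0.974 and 0.783 CPM, overlapping the normal control rats. The log2 fold change was -2.71 against DEN model rats and 0.20 (SE 0.51, adjusted p = 0.89) against normal control rats.

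Ank1 was counted in DEN model rats alone. It had 86, 32 and 27 counts in rats 13, 17 and 24 (3.65, 1.58 and 1.12 CPM; mean 2.12 ± 1.35, SD, n = 3) and 0 counts in the 6 others. The level in DEN model rats was at least 8.98-fold higher than in normal control rats (5.78-fold without rat 13), and in PZH rats it was at least 11.4-fold lower than in DEN model rats (7.31-fold without rat 13). LOC100910418, which overlaps it, had 565 counts over the 9 rats.

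Alas2, like S100a9 and Ngp, was counted in every rat. It was at 2.81, 7.33 and 3.27 CPM in normal control rats, 29.1, 11.1 and 3.21 CPM in DEN model rats and 1.11, 2.57 and 2.42 CPM in PZH rats. DEN model rat 24 lay within the normal control range, while PZH rats lay below all other rats. The log2 fold change in DEN model against normal control rats was 1.70 (SE 0.72, adjusted p = 0.082). It did not pass in the main test, gave adjusted p from 0.0096 to 0.41 over 11 alternatives and passed in 3, and the log2 fold change was 0.69 without rat 13. PZH rats differed from DEN model rats by -2.83, or by -1.81 without rat 13, and from normal control rats by -1.14 (SE 0.49, adjusted p = 0.26).

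In DEN model against normal control rats, 7 of the 10 genes passed the filter on low counts, and of these a p is printed for S100a9 and Alas2 alone. Genes at or near 0 in normal control rats passed that filter only through the DEN model rats, so no count of calls over the 10 is read. Across all 14255 genes tested, 45.8% passed in either direction and 25.3% were higher in DEN model rats. The DEN model rats all lay above the normal control rats for 7 of the 10 genes, 1 of which (Mpo) was not tested, and the same held for 31.4% of the genes tested. Defa5, RatNP-3b and Ank1 are among the 7 and had to be high in DEN model rats to be chosen, so nothing is read from this count either. In PZH against DEN model rats 7 of the 10 did not overlap, all lower, where 22.5% of 14272 genes tested had every PZH rat lower while 10.3% passed as lower and 8.72% as higher. That contrast was used to choose genes, and nothing is read from it. In PZH against normal control rats 3 of the 10 could be tested, and a p is printed for S100a9 and Alas2. Neither passed with edgeR or with DESeq2, against 5.21% of 13348 genes called with edgeR. The unadjusted edgeR p of Alas2 was 0.045. At the study's own thresholds 12.3%, 2.43% and 2.32% of the genes tested passed in these 3 comparisons, in the order given. The DEN model rats are in both of the first 2 comparisons, so a rise with DEN and a fall with PZH for one gene are not independent of each other.

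Compared per transcript length, with the authors' FPKM, the order of levels in DEN model rats was S100a9 (mean 24), S100a8 (18.6), Alas2 (11.8), Defa5 (7.25), RatNP-3b (3.22), Np4 (2.18), Ngp (0.944), Ank1 (0.594), Elane (0.547) and Mpo (0.473). The ranges over 3 rats of each pair of neighbours in this order overlapped. In normal control rats Alas2 (2 FPKM) and S100a9 (1.67) led, and in PZH rats S100a8 (2.69) and S100a9 (2.15) did, with Alas2 at 1.07.

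The 10 genes shared their highest DEN model rat but not their lowest. Rat 13 was the highest of the 3 for 10 of 10 genes, whereas it was the highest for 29.5% of the 15354 genes with at least 20 counts over these rats. Its share of the summed level was 39.9% for S100a8, 42.8% for RatNP-3b, 57.4% for Ank1, 67% for Alas2, 76.2% for Mpo and 88.2% for Elane, and the median over the 10 was 60%. The rat with the least differed, being rat 17 for Defa5, S100a8, Mpo and Elane and rat 24 for the other 6.

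**Figure D2:**
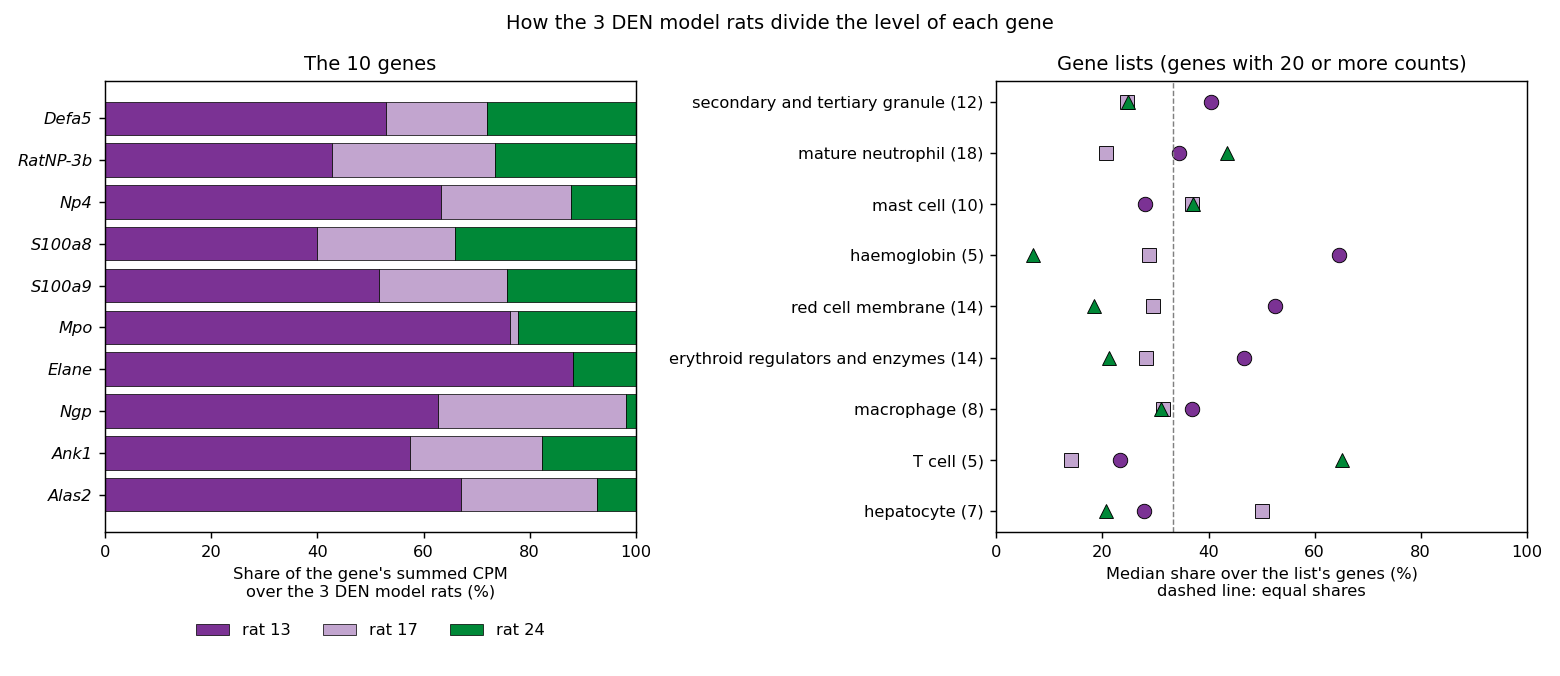
Left, the share of each gene's summed CPM that each DEN model rat holds, as stacked bars that end at 100%. Right, the median share over the genes of 9 lists, with the number of genes in parentheses, the same colours and symbols for the rats, and a dashed line at equal shares. Rat 13 holds the largest part of each of the 10 genes and of the haemoglobin, membrane and erythroid lists, while rat 24 holds the largest median part of the mature neutrophil and T cell lists.

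Genes with other roles in neutrophils were read from lists that hold none of the 10. A gene near 0 in one group enters the counts and tests below only through the other group. In DEN model against normal control rats, 30 of 65 granulocyte identifiers could be tested, 21 rose and 2 fell, where 45.8% of all genes passed, and their median log2 fold change was 1.78 beside 0.03 over all genes tested. In PZH against DEN model rats 32 could be tested, 13 fell and none rose (median -1.40 beside 0.01), where 19.1% of all genes passed in either direction. This second count moved with single rats, as did the calls over all genes, which numbered 2722 with all rats, 271 without DEN model rat 13, 725 without rat 24, 3319 without rat 17 and 2213, 1178 and 1221 without PZH rats 27, 28 and 42. The granulocyte calls were 2 without DEN model rat 13, 3 without rat 24, 20 without rat 17, and 7, 6 and 4 without PZH rats 27, 28 and 42. In PZH against normal control rats 2 of 23 rose, Lcn2 and Adam8, and none fell, where 5.21% of all genes passed and 4.07% were higher.

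Secondary and tertiary granule genes had the largest median changes of the granulocyte lists, 3.08 with DEN and -2.29 in PZH against DEN model rats. Of 8 tested, 7 rose in DEN model rats and 6 fell in PZH rats, where 45.8% and 19.1% of all genes passed in either direction. Pglyrp1, a peptidoglycan-binding granule protein, was at 6.54, 5.65 and 4.04 CPM in DEN model rats, had 1 normal control rat above 0 (0.0763 CPM), and was at 0.128, 0.278 and 0 CPM in PZH rats. Its log2 fold change in PZH against DEN model rats was -5.23. Having at most 1 count in normal control and 4 in PZH rats, it passed the filter only through the DEN model rats. No p is given for it. Lcn2, the iron-siderophore binding lipocalin that hepatocytes make too, was at 1.33 to 2.21 CPM in normal control, 55.3 to 87.1 CPM in DEN model and 7.13 to 13.2 CPM in PZH rats. Its log2 fold changes were 5.51 (SE 0.31, adjusted p = 2.1e-05), -2.71 (SE 0.28, adjusted p = 0.0051) and 2.77 (SE 0.37, adjusted p = 0.0061) in PZH against normal control rats.

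Adam8, a surface protease, rose by 5.56 in DEN model rats and was 4.14 above normal control rats in PZH rats (adjusted p = 2e-05 and 0.0038). Mmp8, the neutrophil collagenase, rose by 2.85 and fell by 3.17 on the log2 scale (adjusted p = 0.012 and 0.024). Camp, the cathelicidin, had its highest level in rat 13 at 1.1 CPM, with 0.347 and 0.291 CPM in rats 17 and 24 and 0 in normal control rats, but failed the filter. Ltf, lactoferrin, a defining protein of secondary granules, was at 0 in all normal control and DEN model rats and at 0.0696 CPM in PZH rat 28.

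Genes of mature neutrophils rose with DEN in 10 of 13 tested, with 1 lower, where 25.3% of all genes were called higher and 20.5% lower. Some of the list were well above 0 in normal control rats, such as Cd14 (51.8 to 94.2 CPM), Itgb2 (19.1 to 36.1 CPM) and Alpl (16.3 to 20.8 CPM). Cxcr1, Fpr1, Fpr2 and Trem3 had at most 14 counts in any rat. The list is thus not a reading of neutrophils alone, and which cells held its transcripts was not tested. In PZH against DEN model rats 5 of 15 fell, where 10.3% of all genes were called lower. Csf3r, the receptor for the growth factor G-CSF, was at 0.469 to 0.839 CPM in normal control rats, 7.05, 3.96 and 9.74 CPM in DEN model rats 13, 17 and 24 and 2.07 to 2.23 CPM in PZH rats. Its log2 fold changes were 3.50 (SE 0.47, adjusted p = 0.00074) with DEN and -1.67 (SE 0.37, adjusted p = 0.022) with PZH. Cxcr2, the chemokine receptor that draws neutrophils to tissue, had a log2 fold change of 4.0 with DEN. With at most 3 counts in a normal control rat, it passed the filter only through the DEN model rats, and no p is given. Cxcr2 fell by 1.75 on the log2 scale with PZH (SE 0.50, adjusted p = 0.044). Padi4, which citrullinates histones, was at 0 in normal control rats and at 4.42, 0.594 and 12.2 CPM in DEN model rats. Padi4 was thus at least 24.4-fold higher against the floor, a bound that rests mainly on rat 24, with 70.9% of its summed level. Its groups overlapped in PZH against DEN model rats (adjusted p = 0.054).

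The mature neutrophil genes and the 10 genes were highest in different DEN model rats. Rat 24 was the highest for 12 of 18 mature neutrophil genes and rat 13 for 4, with median shares of 43.5% and 34.4%. For Csf3r, Cxcr2 and Padi4 the highest was rat 24, in which Ngp had 1 count and Elane 3. Of the granule genes of the secondary list, 7 of 12 were highest in rat 13. The ligands Csf3 and Csf2, which drive neutrophil production, were at 0 counts in all 9 rats, and Csf2rb, the shared receptor chain for Csf2, rose by 1.16 with DEN and fell by 1.04 on the log2 scale with PZH (adjusted p = 0.012 and 0.047).

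**Figure D3:**
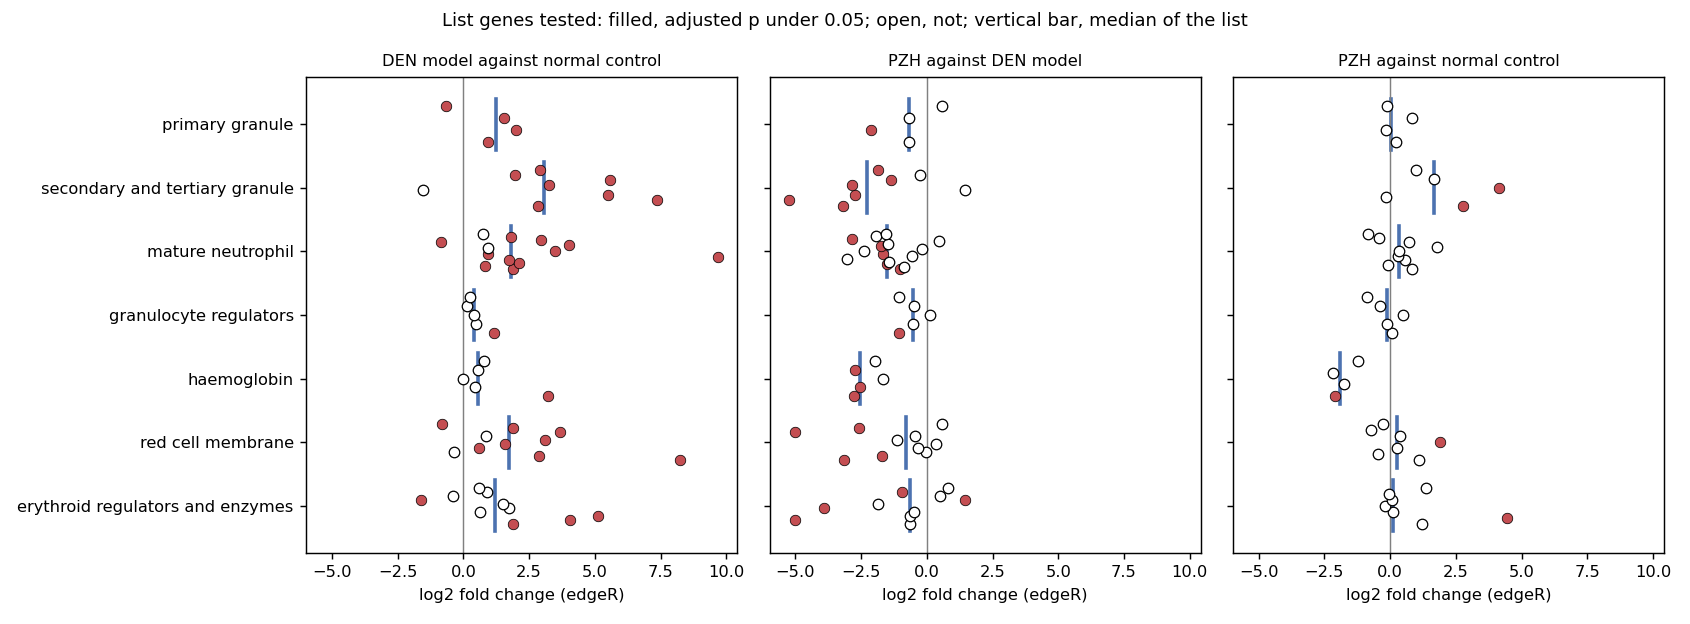
Log2 fold change of each tested gene of the granulocyte and erythroid lists in the 3 comparisons, 1 point per gene. Filled points passed at an adjusted p under 0.05, open points did not, and the vertical bar is the list's median. Secondary and tertiary granule genes have a median of 3.08 with DEN and -2.29 with PZH against DEN, while haemoglobin genes have medians of 0.57 and -2.52, and fitted values of genes with a group at 0, such as Padi4 at the far right, are not measured folds.

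Red-cell genes outside the 10 were read in the same way. Of 40 erythroid identifiers, 25 were tested in DEN model against normal control rats, 11 rose and 2 fell, where 45.8% of all genes passed, and the median log2 fold change was 0.90 beside 0.03. In PZH against DEN model rats 10 of 25 fell and 1 rose (median -1.13 beside 0.01), where 19.1% of all genes passed. This count of 11 was 1, 9 and 14 without DEN model rats 13, 17 and 24 and 6, 4 and 5 without PZH rats 27, 28 and 42, beside the calls over all genes given above. The 1 that rose, Pklr, is the pyruvate kinase that red cells share with hepatocytes. In PZH against normal control rats 2 of 18 rose (Car2 and Aqp1, which other liver cells also express) and 1 Hba-a2 identifier fell, where 5.21% of all genes passed.

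Of 10 genes of the red-cell membrane tested, 7 rose and 1 fell with DEN, where 45.8% of all genes passed. With PZH 4 fell, where 19.1% of all genes passed in PZH against DEN model rats. Rhd, of the Rh blood group complex, was at 2.8, 0.842 and 0.624 CPM in DEN model rats, 0 to 0.156 CPM in normal control rats and 0 to 0.0853 CPM in PZH rats. Its log2 fold change with DEN was 3.69. Counts of Rhd were at most 2 in any normal control or PZH rat. No p is given, since it passed the filter only through the DEN model rats. Its ratio of counts was 36.8-fold lower with PZH (exact 95% counting interval 9.91 to 308), and rests mainly on rat 13, which held 65.7% of its level. Slc4a1, the anion exchanger that Ank1 binds, was at 2.03 to 5.27 CPM in normal control rats, 24.1, 11.1 and 7.91 CPM in DEN model rats and 1.5 to 3.41 CPM in PZH rats, with log2 fold changes of 1.87 (SE 0.49, adjusted p = 0.014) and -2.57 (SE 0.49, adjusted p = 0.015). Rhag, the glycoprotein of that complex, was at 2.55, 0.743 and 0.291 CPM in DEN model rats and at 0 in the 6 others, and failed the filter.

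Among regulators, Hemgn had a log2 fold change of 4.07 with DEN and was lower in PZH than in DEN model rats. Its counts were at most 4 in any normal control or PZH rat. Hemgn passed the filter only through the DEN model rats, and no p is given. It was at 5.74, 1.34 and 1.12 CPM in DEN model rats 13, 17 and 24, with 70% of the summed level in rat 13. Car1, the red-cell carbonic anhydrase, fell with PZH by 3.91 on the log2 scale (SE 0.85, adjusted p = 0.02). It was at 7.9, 1.39 and 1.54 CPM in DEN model rats 13, 17 and 24, so rat 13 held most of its level. Normal control rats had 0.336 to 2.06 CPM and PZH rats 0.142 to 0.278 CPM of Car1. Klf1, the erythroid transcription factor, was at 2.55, 0.792 and 0.291 CPM in DEN model rats, 0 to 0.534 CPM in normal control rats and 0 to 0.641 CPM in PZH rats, and Gata1 was at most 0.722 CPM in any rat. Both failed the filter. Gfi1b was at 1.19 CPM in rat 13 and at or below 0.0416 CPM in the 8 others.

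Haemoglobin, the main mRNA of circulating reticulocytes, was high in every rat, unlike Ank1. Hbb was at 209, 316 and 112 CPM in normal control rats, 716, 279 and 78.7 CPM in DEN model rats 13, 17 and 24 and 63.7, 75.2 and 130 CPM in PZH rats. Its log2 fold change was 0.77 (SE 0.68, adjusted p = 0.39) with DEN and -1.97 (SE 0.69, adjusted p = 0.079) with PZH, and the groups overlapped in both. Normal control rat 12 had 316 CPM of Hbb and 0 counts of Ank1, whereas DEN model rat 24 had 78.7 CPM of Hbb and 27 counts of Ank1. The 2 Hba-a2 identifiers, near-copies whose reads may be split, fell with PZH against DEN model rats (-2.71 and -2.52, adjusted p = 0.037 and, rounded up, 0.05), though their groups overlapped. Ahsp, the chaperone of alpha-globin, rose by 3.22 (SE 0.57, adjusted p = 0.0025) and fell by 2.76 on the log2 scale (SE 0.51, adjusted p = 0.014).

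Alas2 shared some of its order among rats with haemoglobin. Normal control rat 12 was the highest of its group for both Alas2 (7.33 CPM) and Hbb, and DEN model rats had the order 13, 17 and 24 for both. In PZH rats the globins did not share one order: rat 27 was the lowest for Alas2 (1.11 CPM) and Hbb but the highest for both Hba-a2 identifiers (125 and 47.2 CPM) and Hba-a3 (1.71 CPM). All 5 haemoglobin genes with at least 20 counts were highest in rat 13, with median shares of 64.5%, 28.7% and 6.89% in rats 13, 17 and 24, where Alas2 had 67%, 25.6% and 7.38%. In bulk tissue, fewer cells of a type and less RNA per cell cannot be told apart, and neither can blood left in the vessels and cells within the tissue.

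**Figure D4:**
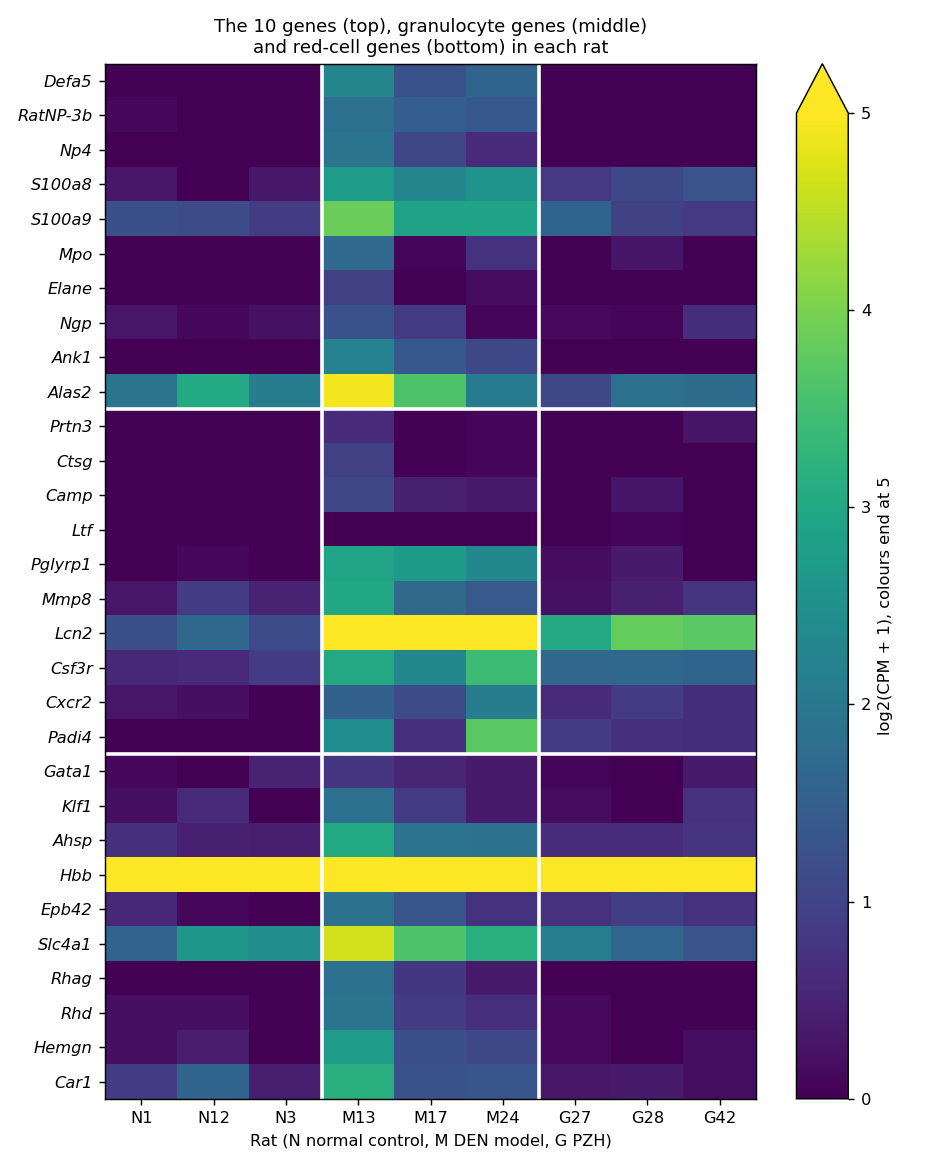
Level of the 10 genes, 10 granulocyte genes and 10 red-cell genes in each of the 9 rats, coloured by log2(CPM + 1), where colours end at 5 so that higher levels look alike. Columns are rats and white lines part the groups and the sets. Hbb is high in all 9 rats, Ank1 and Rhag are above 0 in the DEN model rats alone, and Csf3r and Padi4 are highest in DEN model rat 24.

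Markers of other cells moved in the same comparisons, and their part in these results was not tested. The shares of all genes called were 45.8% with DEN and 19.1% in PZH against DEN model rats, as above. Of 5 cholangiocyte genes, 5 rose with DEN and 5 fell with PZH, their summed level being 13.1 to 20.8 CPM in normal control, 198 to 722 CPM in DEN model and 74 to 87.2 CPM in PZH rats. Of 6 stellate and fibroblast genes 5 rose and 4 fell, with sums of 172 to 254, 859 to 2575 and 490 to 591 CPM. Of 4 T cell genes tested 4 rose and 1 fell (22.9 to 45.6, 76.9 to 119 and 37.2 to 44.8 CPM), and rat 24 was the highest for 4 of 5. Of 8 macrophage genes, which share S100a8 and S100a9 with neutrophils, none rose and 3 fell with DEN, and 3 fell with PZH (545 to 1024, 504 to 640 and 264 to 651 CPM). Hepatocyte genes fell with DEN in 3 of 7 and rose with PZH in 2.

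Alpha-defensins are also made by Paneth cells of the gut, so 8 other Paneth cell genes were read. Their sum was 24.5 to 37.7 CPM in normal control, 201 to 524 CPM in DEN model and 50.9 to 105 CPM in PZH rats. Most of this sum was the single gene Lyz2, at 329, 183 and 485 CPM in DEN model rats 13, 17 and 24. Lyz2 was at 23.1 to 35 CPM in normal control and 49.8 to 94 CPM in PZH rats. The sum therefore follows Lyz2 and not the list as a whole, and Lyz1 was not found. Itln1, Reg3a, Reg3b, Reg3g and Wnt3 were at 0 in normal control and PZH rats, and in DEN model rats Wnt3 alone was at 0. Rat 24 held the most of 4 of 5 Paneth genes, for example 31.1 CPM of Reg3b against 0.212 CPM in rat 13 and 0.446 CPM in rat 17, while Defa5, RatNP-3b and Np4 were highest in rat 13. The part of such cells was not tested.

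Genes with the most similar pattern over the 9 rats were sought for 4 of the 10, among 12493 named genes with a mean of at least 1 CPM in a group. Likeness was the root mean square difference of levels on the log2(CPM + 1) scale after each gene was set to mean 0 and SD 1, so that 0 is an identical pattern. RatNP-3b was nearest to Pglyrp1 (0.123), Brinp2 (0.157) and Sele (0.175). S100a9 was nearest to P4ha1 (0.158), Dock6 (0.16) and Pimreg (0.169), and Mpo to Sytl5 (0.185), Mboat2 (0.247) and Fcgbp (0.281). Alas2 was nearest to the Kell blood group gene Kel (0.316), Cntnap1 (0.374) and Alox15 (0.394). These are descriptions over 9 rats that share groups, and carry no test.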

How the data were processed

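Liver RNA of 9 rats was sequenced, 1 library per rat. Per the labels' processing notes the submitters used fastp, HISAT2 2.1.0, StringTie 1.3.3b and edgeR 3.30.3, with no roles given, and the genome build is not given in the sources used here. The authors deposited whole-number read counts per gene, not normalized, and FPKM values, which they had scaled for transcript length and library size. The columns holding their own group comparisons (log2 ratio, P and Q) were left unused. One list gene that the naming rule picks is not reported here. Whether counting used strand is not stated.

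Counts were filtered with filterByExpr, scaled with TMM and tested with edgeR 4.0.16 (quasi-likelihood, R 4.3.3) on the 6 rats of each comparison, with no covariates. A gene was called at a Benjamini-Hochberg adjusted p under 0.05 over all genes tested. CPM per rat used TMM factors over 9 rats, and folds those of the 6 rats compared. Where a group was at 0 counts, the fold was taken against the mean floor of 3 counts per library, and with 1 to 3 counts in a group, or for an untested gene, as a ratio of summed counts with an exact (Clopper-Pearson) 95% interval.

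The 10 genes and all lists were chosen with earlier results of these data known. Besides the 10, a list names up to 3 called genes with the largest and 3 with the smallest log2 fold change, and cell-defining genes such as Csf3r, Cxcr2, Ltf, Camp, Prtn3, Ctsg, Gata1, Klf1, Slc4a1 and the haemoglobins. Genes outside these rules (Rhag, Gfi1b, Padi4 with PZH, Wnt3 and the like) and the 3 promoter motifs were chosen with values or sequences in view. Labels call the rats separate animals, so p-values measure the spread between rats. Checked on simulated data in which 200 genes were shifted by 3 on the log2 scale, the test called 92.5% (14005 genes, DEN model against normal control), 95.5% (14057, PZH against DEN model) and 94.5% (13143, PZH against normal control).

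Alternatives were DESeq2 1.42.0, library totals without TMM, no filter, a minimum of 10 counts per rat, a joint fit of the 3 groups, the study's thresholds (absolute log2 fold change above 2 and unadjusted P under 0.001), leaving out each rat, and the deepest library thinned to 16641954 counts.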

Additional observations from a re-analysis of the deposited data

How the results depend on the processing

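Called granulocyte genes in DEN model against normal control rats numbered 23, but 11 with at least 10 counts in every rat and 8 at the study's thresholds. In PZH against DEN model rats the 13 became 21 with DESeq2 (2 higher and 19 lower), 25 with library totals, 8 with at least 10 counts and 3 at the study's thresholds. They ran from 2 to 20 when single rats were left out. In PZH against normal control rats the 2 became 4 with DESeq2, 1 with at least 10 counts and 2 to 4 without single rats. The 13 erythroid calls in DEN model against normal control rats became 8 and 4 under the count minimum and the study's thresholds. The 11 in PZH against DEN model rats became 19 with library totals, 7 with at least 10 counts, 4 at the study's thresholds and 1 to 14 without single rats. The 3 in PZH against normal control rats became 6 with DESeq2, 5 without the filter, 1 at the study's thresholds and 1 to 6 without single rats. Fewer genes could be tested with the count minimum, and fewer rats entered when one was left out. The cause of the other moves was not tested.

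With library totals the median over all genes tested shifted from 0.03 to 0.89 with DEN (log2 fold change) and from 0.01 to -0.67 in PZH against DEN model rats, and 89.5% and 8.89% of called genes were then higher, in place of 55.3% and 45.7%. Ctsc, Cd14 and Gypc, called lower with DEN, then had log2 fold changes of 0.20, 0.06 and 0.02. Alas2 with DEN was called with DESeq2 (adjusted p = 0.022), library totals (0.0096) and without DEN model rat 24 (0.011). S100a9 stayed higher with DEN at an adjusted p under 0.05 in each alternative fit that tested it. No paired analysis was possible because the groups share no replicate numbers. Depth limits Mpo, Elane and Ngp, whose counts were at most 54 in any rat.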

Other observations

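Mast cells, whose granules hold proteases of a different set, were measured apart from the neutrophil genes. Of 9 mast cell genes tested, 6 rose with DEN and 1 fell, where 45.8% of all genes passed. Mcpt1, a mast cell chymase, was at 0 to 0.703 CPM in normal control rats, 27, 25.2 and 36.5 CPM in DEN model rats and 6.27, 21.1 and 2.85 CPM in PZH rats, and Cpa3, the mast cell carboxypeptidase, was at 17.2 to 25 CPM in DEN model rats and 5.29, 27.5 and 7.69 CPM in PZH rats. None of the 9 passed in PZH against DEN model rats with edgeR, where 1 had an unadjusted p under 0.05 and DESeq2 called 1, and 19.1% of all genes passed there. Mcpt1 differed there by -1.54 (SE 0.61, adjusted p = 0.11) and Ms4a2, the beta chain of the IgE receptor, by 0.08 (SE 0.39, adjusted p = 0.91). Against normal control rats 3 of 7 were higher in PZH rats and Hdc, which makes histamine, was lower (-2.54, SE 0.49, adjusted p = 0.02), where 5.21% of all genes passed. The difference between mast cell and neutrophil genes in their response to PZH was not tested.

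Genes of haem synthesis other than Alas2, which hepatocytes share with red cells, were lower in DEN model rats where they passed. Of 13 such genes, 7 fell with DEN and none rose, where 45.8% of all genes passed and 20.5% were lower. In PZH against DEN model rats 4 rose, where 19.1% of all genes passed and 8.72% were higher. Alad fell by 1.19 on the log2 scale with DEN (SE 0.19, adjusted p = 0.0017) and rose by 0.88 with PZH (SE 0.19, adjusted p = 0.022). Slc25a38, the mitochondrial glycine carrier, fell by 1.75 and rose by 1.14 (adjusted p = 0.0017 and 0.048). Alas1, the form of the first enzyme that liver uses, was at 97.8 to 150 CPM in normal control rats, 68.3 to 178 CPM in DEN model rats and 88.3 to 124 CPM in PZH rats (adjusted p = 0.79 and 0.97). Rat 17 was the highest DEN model rat for 9 of the 13, as it was for 7 of 7 hepatocyte genes. Of 12 platelet genes 4 could be tested, and these moved in both directions. Gp9, Gp1ba, Gp1bb, Ppbp and Treml1 had at most 9 counts in any rat. Whether the tested genes came from platelets or from other liver cells was not tested. Of 4 tested, 2 rose and 1 fell with DEN, where 45.8% of all genes passed. In PZH against DEN model rats 1 rose and 2 fell, where 19.1% of all genes passed. Pf4 rose by 2.02 with DEN (adjusted p = 0.0038) and fell by 1.76 on the log2 scale with PZH (adjusted p = 0.024), while Clec1b fell by 2.67 (adjusted p = 0.0015) and rose by 1.88 (adjusted p = 0.031).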
